A study of Mus musculus with 12 samples.

Results

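Mt1 and Mt2 encode the metallothioneins of most mouse tissues, and they are 2 of the 12145 rows of a gene count table from mouse cortical cultures. They were chosen from the measured values: under the miR-29 virus they were the only genes that passed the test between oxygen-glucose deprivation (OGD) and sham. That difference, and every comparison that shares its libraries, is therefore given for the pair as a description with no test. The adjusted p at the threshold of the choice, and the rates in the authors' own table, are printed once each as part of that description. The difference under the empty virus compares the means of other libraries and was tested. The spread behind that test was estimated over all libraries, including those that chose the pair, so the test is not independent of the choice.

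The cultures were made from C57BL6 cortex at embryonic stage E16.5-E17.5. At day in vitro 6 they received a lentivirus, either empty or carrying miR-29c, to a summed multiplicity of infection of 2. At day in vitro 14 they were deprived of oxygen and glucose for 3 h and given 4 h in culture medium, or were changed to the same buffer in normal oxygen (sham). OGD is a culture model of ischemia. With the empty virus the groups are called sham-empty and OGD-empty, with miR-29c they are sham-miR-29 and OGD-miR-29, and each of the 4 holds 3 libraries whose numbers mark separate days of dissection. All groups carry a lentivirus, so none shows cultures without infection. The promoter that drives miR-29c in the vector is not given in the sources used here.

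Metallothioneins are small proteins whose many cysteines hold zinc and copper. Free zinc activates the transcription factor MTF1, which binds metal response elements in the promoters of Mt1, Mt2 and the zinc exporter gene Slc30a1. Glucocorticoids, STAT3 signalling and oxidative stress can raise Mt1 and Mt2 as well, and in brain both are mostly glial, whereas Mt3 is best known from neurons and responds little to metals.

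Both genes lie on the plus strand of chromosome 8 (GRCm38, GENCODE). Mt2 spans 94172664 to 94173568 and Mt1 spans 94179082 to 94180327, which leaves 5513 bp between them. Each has 3 exons, and the spliced transcripts Mt2-201 and Mt1-201 are 511 and 549 nt long. Mt3 lies upstream of them at 94152607 to 94154146. The antisense gene Gm45774 overlaps Mt2, and the lincRNA gene Gm39228 starts 2961 bp beyond Mt1. Neither of these is in the count table.

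The promoters of the pair are shown because the rows of Mt1 and Mt2, which can share reads, moved together. That of Mt3, the brain form, is shown for comparison. Each window runs from 250 bases before the RefSeq start to 50 bases after it (GRCm38.p6, plus strand). For Mt2 this start lies upstream of the GENCODE start. Capitals mark each match to the core of a metal response element, searched on both strands as TGCACNC and TGCGCNC. A match on the minus strand appears as its complement.
Mt1, chr8:94178839-94179138: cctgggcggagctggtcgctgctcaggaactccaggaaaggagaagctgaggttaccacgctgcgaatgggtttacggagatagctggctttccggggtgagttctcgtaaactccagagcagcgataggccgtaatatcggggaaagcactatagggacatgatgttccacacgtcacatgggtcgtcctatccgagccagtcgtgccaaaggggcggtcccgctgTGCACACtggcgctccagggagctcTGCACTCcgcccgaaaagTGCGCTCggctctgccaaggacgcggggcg
Mt2, chr8:94172368-94172667: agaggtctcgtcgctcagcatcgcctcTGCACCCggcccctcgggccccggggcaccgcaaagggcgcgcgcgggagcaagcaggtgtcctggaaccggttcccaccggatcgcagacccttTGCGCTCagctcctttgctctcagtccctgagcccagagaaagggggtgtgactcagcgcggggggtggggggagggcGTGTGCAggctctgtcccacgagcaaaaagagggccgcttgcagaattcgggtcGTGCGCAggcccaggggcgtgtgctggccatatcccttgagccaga
Mt3, chr8:94152357-94152656: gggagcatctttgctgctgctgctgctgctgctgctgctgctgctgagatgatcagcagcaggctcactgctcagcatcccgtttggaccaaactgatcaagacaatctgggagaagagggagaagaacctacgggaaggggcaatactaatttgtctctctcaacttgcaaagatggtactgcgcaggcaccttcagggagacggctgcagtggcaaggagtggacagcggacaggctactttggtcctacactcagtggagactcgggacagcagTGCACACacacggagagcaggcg

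The Mt1 window holds 3 such cores, all on the plus strand, and 1.97% of 32851 RefSeq promoter windows hold at least as many. The Mt2 window holds 4 cores, 2 on each strand, and 0.517% of all windows hold at least as many. In Mt3 there is 1 core, as in Mt4, and 25.7% of all windows hold at least 1. The Slc30a1 window has 2 cores and that of Mtf1 has 0. A core of the antioxidant response element, TGACNNNGC, occurs once in the Mt2 window and is found in 12.4% of all windows. The hypoxia response core ACGTG occurs once in the Mt1 window, on the minus strand, and in 19.6% of all. The glucocorticoid palindrome, AGAACA and TGTTCT set 3 bases apart, is in neither. No matches overlapped each other in the windows of Mt1, Mt2 and Mt3. A match is a description of the letters and not a measured site. The counts hold for these windows only, and bases beyond them were not searched.

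The mature miR-29c-3p of RefSeq is shown because it is the arm whose seed defines the miR-29 family, with its seed, bases 2 to 8, in capitals.
miR-29c-3p, chr1:195037600-195037621, plus strand: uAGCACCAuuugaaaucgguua
The complement of this seed, TGGTGCT, was in 0 of the 5 annotated coding transcripts of Mt1 and Mt2, which are 388 to 1085 nt long. It was in 8.93% of the 17881 coding transcripts of that length range. The shorter match GGTGCT was likewise in 0 of the 5, against 22.7% of the others.

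Of the 12 deposited columns, 11 held read counts. The column named for sham-empty replicate 3 summed to 22859, and 92.5% of its 11911 values with an annotated gene equalled the number of same-strand genes in the gene and the 10 kb downstream of it. It gave 2 for Mt1 and 3 for Mt2, as that count of genes does. It was left out after its values had been seen, so sham-empty has n = 2 in every value here. The other libraries summed to between 1337564 and 6616920 counts, of which 57.6% to 84.1% were in 37 mitochondrial rows, and to 231500 to 1362484 without them. The median gene held 9 to 59 counts, so the depth was low. All 10 neuronal markers listed were among the genes tested, 8 of 10 astrocyte markers were (Gfap and Sox9 were not), and no endothelial or mural marker was.

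Because Mt1 starts within 10 kb of the end of Mt2, the row of Mt2 can hold reads of Mt1. In each of the 11 libraries the Mt2 row was the higher, by a ratio of 1.25 to 1.74, with a mean of 1.44 ± 0.165 (SD, n = 11). By group the mean ratio was 1.48 ± 0.188 in sham-empty (n = 2), 1.44 ± 0.260 in sham-miR-29, 1.51 ± 0.174 in OGD-empty and 1.36 ± 0.0449 in OGD-miR-29 (SD, n = 3 each). The ranges of the groups overlapped. If the Mt2 row holds reads of Mt1, a steady ratio is partly built in, so the ratio cannot show that the genes moved together. These are ratios of row counts and are not per length. Across the table, the upstream row of a same-strand pair within 10 kb was nowhere below the downstream row in 48.1% of 1420 pairs, and in 29.6% of 582 pairs set 10 to 20 kb apart. The order was thus more frequent within 10 kb, but it did not hold in every pair. It need not hold even if each row summed its whole window, because the window of the downstream gene reaches further. After subtraction of the Mt1 row, the Mt2 row kept a CPM (count per 1e6 of scaled library total) of 5.14 to 10.8 in sham-miR-29 and 8.10 to 15.9 in sham-empty. It kept 16.3 to 31.0 CPM in OGD-empty and 15.9 to 31.6 in OGD-miR-29. The sharing of reads could not be settled from the table, and Mt2 is not a measurement separate from Mt1.

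**Figure D1:**
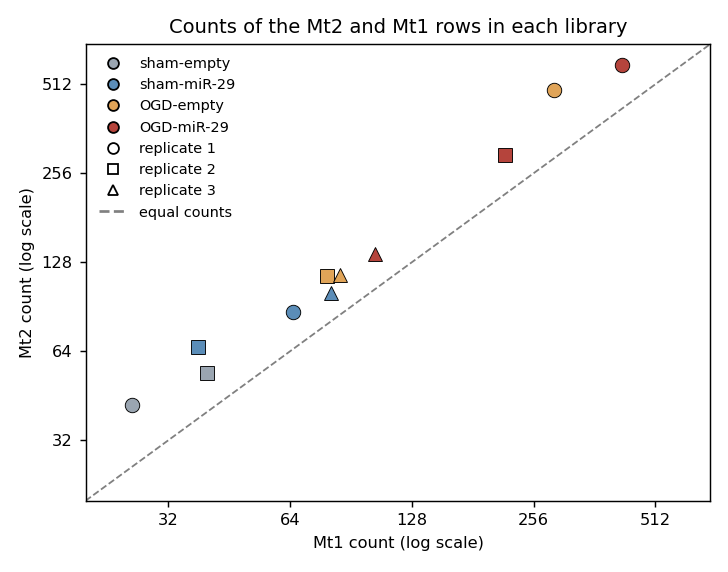
Count of the Mt2 row (y axis, log scale) against that of the Mt1 row (x axis, log scale) in each of the 11 libraries; colour gives the group, shape the replicate number, and the dashed line equal counts. Every point lies above the line, at a ratio of 1.25 to 1.74.

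Mt1 was lowest in sham cultures and highest after OGD with the miR-29 virus. In sham-empty replicates 1 and 2 it had 26 and 40 counts, or 25.9 and 23.2 CPM. With sham-miR-29 it had 65, 38 and 81 counts, or 24.6, 14.6 and 20.8 CPM. The ranges of the sham groups overlapped. In OGD-empty it had 287, 79 and 85 counts, or 44.3, 35.7 and 45.6 CPM, and in OGD-miR-29 it had 423, 218 and 104 counts, or 77.7, 85.9 and 50.0 CPM. No OGD library overlapped a sham library. The lowest of the OGD-miR-29 libraries, replicate 3, lay just above the highest OGD-empty library.

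Mt2 took the same order. It had 42 and 54 counts in sham-empty (41.8 and 31.3 CPM) and 87, 66 and 101 in sham-miR-29 (33.0, 25.4 and 26.0 CPM). Counts were 488, 115 and 116 in OGD-empty (75.4, 51.9 and 62.2 CPM) and 595, 295 and 137 in OGD-miR-29 (109.3, 116.2 and 65.9 CPM). Here too each OGD library stood above each sham library, but replicate 3 of OGD-miR-29 fell inside the range of OGD-empty. The share of all genes with this order over both viruses was not computed. Within a virus, 22% of genes under the empty virus and 8.19% under the miR-29 virus were higher after OGD without overlap.

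Group means of Mt1 were 20.03 ± 5.07 CPM in sham-miR-29 and 24.5 ± 1.92 in sham-empty (n = 2). They were 41.9 ± 5.38 in OGD-empty and 71.2 ± 18.8 in OGD-miR-29 (SD, n = 3 for each group but sham-empty). Those of Mt2 were 28.1 ± 4.24, 36.5 ± 7.44, 63.2 ± 11.7 and 97.1 ± 27.3 CPM in the same order. The libraries of sham-miR-29 and sham-empty overlapped in both genes, and the difference of their means was not tested. Counting error was wide at the low end: the 26 counts of Mt1 in sham-empty replicate 1 allow 16.9 to 37.9 CPM (95% Poisson interval, counting error only). In bulk RNA of this kind, a change in the share of cells that express a gene and a change in RNA per cell cannot be told apart.

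**Figure D2:**
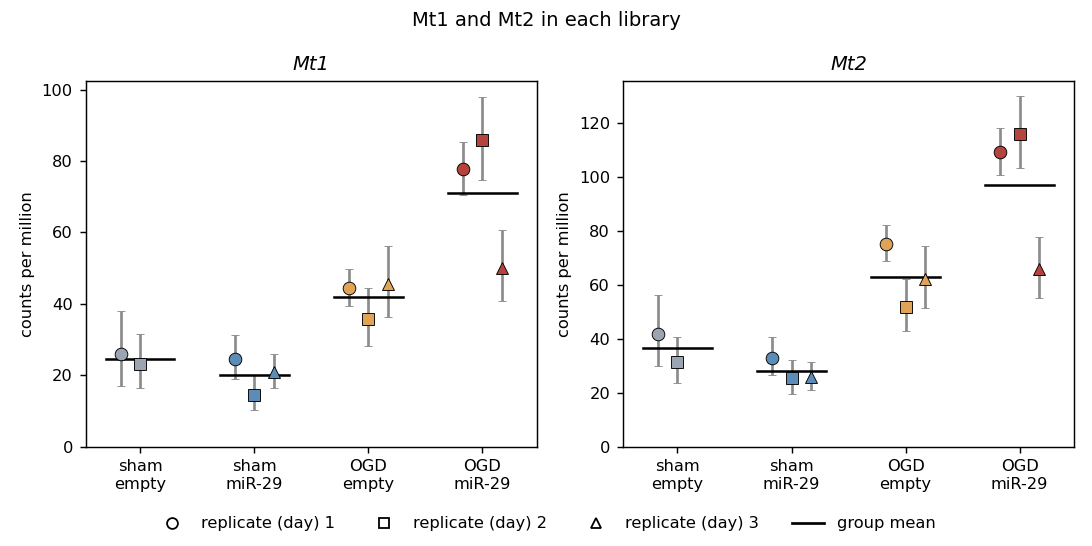
Mt1 and Mt2 in CPM (y axes, from 0) in each library by group; points are libraries shaped by replicate number, vertical bars are 95% Poisson counting intervals and black lines are group means. All OGD libraries lie above all sham libraries in both genes, and replicate 3 is the lowest of the OGD-miR-29 group.

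Under the empty virus, both genes were higher after OGD, but neither passed the test. The fold was 1.72 for Mt1, with a log2 fold change of 0.78 ± 0.28 (SE; adjusted p = 0.103, edgeR quasi-likelihood test), and 1.76 for Mt2, with 0.81 ± 0.27 (adjusted p = 0.0827). Of all genes tested in this contrast, 5.09% were called at an adjusted p under 0.05, and 22% had groups that did not overlap and were higher after OGD, as both genes did. With the day of dissection as a replicate block, Mt2 passed, at 0.91 (adjusted p = 0.0347), and Mt1 did not, at 0.81 (adjusted p = 0.0764). Over all genes the block moved the number called from 617 to 1369. A fit of only the groups compared takes no spread from the miR-29 libraries. There Mt1 was at 0.70 ± 0.25 and did not pass (adjusted p = 0.153, edgeR), and Mt2 did not pass either. Within each day with both libraries, OGD-empty was above sham-empty: 1.71-fold and 1.54-fold for Mt1 on the days of replicates 1 and 2, and 1.80-fold and 1.66-fold for Mt2.

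With the trend on exonic length removed, both genes passed. This length joins all annotated exons of a gene, 1246 bases for Mt1 and 588 for Mt2, and is not that of 1 spliced transcript. Mt1 was then 1.13 ± 0.27 (adjusted p = 0.0292) and Mt2 1.21 ± 0.27 (adjusted p = 0.0195, edgeR). With the trend removed and the block added, Mt1 was 1.19 ± 0.28 (adjusted p = 0.0164) and Mt2 1.33 ± 0.26 (adjusted p = 0.00625). Leaving out OGD-empty replicate 2 also moved both past the threshold, to 0.94 for Mt1 (adjusted p = 0.0499) and 1.01 for Mt2 (adjusted p = 0.0253). The direction was the same in all 23 alternatives run for Mt1 and all 24 run for Mt2. In most of them the gene still did not pass, 20 of 23 for Mt1 and 20 of 24 for Mt2. In the authors' deposited table of this comparison, whose libraries are not stated, Mt1 had a log2 fold change of 0.90 (false discovery rate 0.341) and Mt2 one of 0.98 (0.255), and 6 genes of 12145 were under 0.05.

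With the miR-29 virus the pair was higher by 3.56-fold for Mt1 and 3.47-fold for Mt2 after OGD, log2 fold changes of 1.83 ± 0.23 and 1.79 ± 0.23 (SE). These values chose the pair and carry no test. They were the whole of the 0.0165% of genes called in this contrast, where 8.19% had groups that did not overlap and were higher. With the block, 5 genes were called in place of 2. By day, OGD-miR-29 stood above sham-miR-29 by 3.15-, 5.88- and 2.40-fold for Mt1 and by 3.31-, 4.58- and 2.54-fold for Mt2 on the days of replicates 1, 2 and 3. The smallest excess was on the day of replicate 3 for both.

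At the threshold that chose the pair, both had an adjusted p of 0.000743 and the next genes had 0.142, given here only to show the edge of the choice. Those were Fosl2, an AP-1 subunit, at -1.11 ± 0.22, Tshz1, a zinc finger factor, at -1.80 ± 0.36, and Ccdc114, a ciliary gene, at 2.16 ± 0.43 on the log2 scale. Slc30a1 was next, at 1.27 ± 0.26. In the authors' deposited table of OGD-miR-29 against sham-empty, Mt1 and Mt2 had the lowest p-values of 12145 genes. Their log2 fold changes there were 1.82 (false discovery rate 0.0123) and 1.71 (0.0128), and no other gene was under 0.05. That table shares the OGD-miR-29 group with the contrast that chose the pair.

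In sham cultures the miR-29 virus was accompanied by a log2 difference of -0.28 ± 0.29 for Mt1 and -0.36 ± 0.28 for Mt2 against the empty virus (SE, no test), and the libraries overlapped. In this contrast 0% of genes were called by edgeR, with 405 at an unadjusted p under 0.05, and DESeq2 and limma-voom called 0 too. After OGD, the miR-29 virus was accompanied by higher values, at 0.77 ± 0.22 for Mt1 and 0.62 ± 0.22 for Mt2. This is a contrast in which 37.1% of all genes were called and 25% were higher without overlap. By day the excess was 1.75-, 2.41- and 1.10-fold for Mt1 and 1.45-, 2.24- and 1.06-fold for Mt2, so on the day of replicate 3 the viruses gave nearly the same level.

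The difference between the viruses after OGD shrank once the trend with exonic length was removed, to 0.34 ± 0.21 for Mt1 and 0.20 ± 0.21 for Mt2, and to 0.33 ± 0.20 and 0.18 ± 0.20 with the block. The Mt2 row less the Mt1 row gave 0.27 ± 0.32. Without replicate 2 of every group, the values were 0.54 for Mt1 and 0.35 for Mt2. The OGD response under the miR-29 virus exceeded that under the empty virus by 1.05 ± 0.36 for Mt1 and 0.98 ± 0.35 for Mt2 (log2, SE), in an interaction that called 8.38% of all genes, 1015 without the block and 1861 with it. With the trend removed and the block added, these were 0.51 ± 0.36 and 0.35 ± 0.33. By contrast, the OGD difference under the miR-29 virus was between 1.68 and 1.84 for both genes in every alternative other than leaving out libraries.

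**Figure D3:**
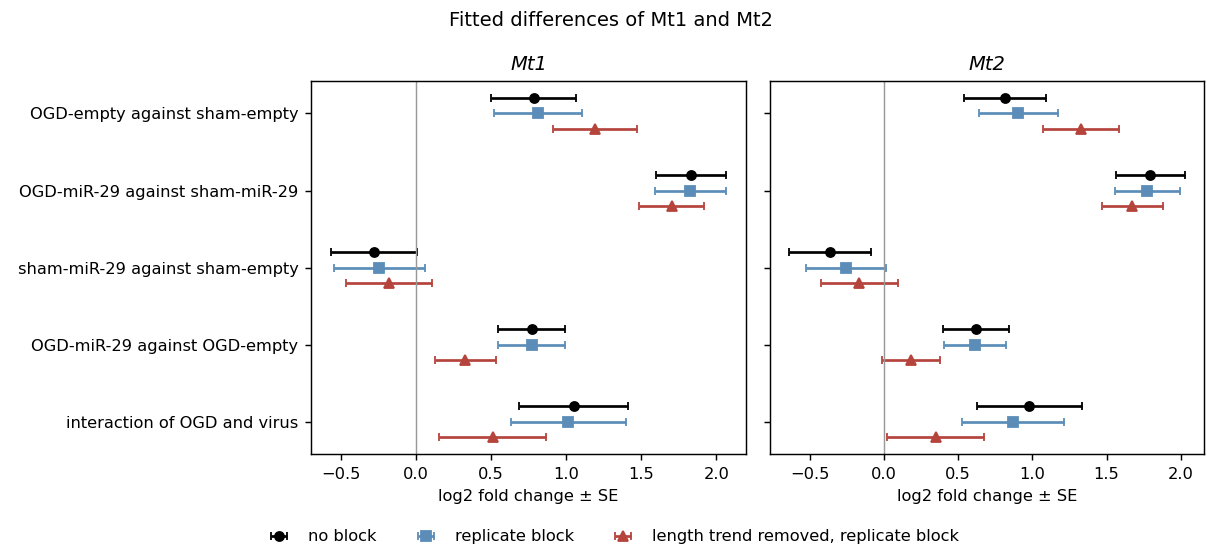
Log2 fold changes (x axis) with standard errors of Mt1 and Mt2 in 5 comparisons (y axis), without a block (black circles), with the replicate block (blue squares), and with the trend with exonic length removed and the block added (red triangles). Removing the trend moves the empty-virus OGD difference up to 1.19 and 1.33 and the difference between viruses after OGD down to 0.33 and 0.18.

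Cell markers moved between the same groups. The summed level of the 10 neuronal markers was 1162 to 1403 CPM in OGD-empty, 739 to 902 in OGD-miR-29, 883 to 999 in sham-empty and 863 to 1101 in sham-miR-29. The 8 astrocyte markers tested summed to 104 to 124 CPM in OGD-empty and to 71.6 to 88.2 in OGD-miR-29, with 75.8 to 85.5 in sham-empty and 94.4 to 101 in sham-miR-29. No tested marker was at 0 in a whole group. Thus the group with the highest Mt1 and Mt2 had among the lowest sums of both marker lists, but abundant markers weigh most in a sum. From OGD-empty to OGD-miR-29 the mean of Slc1a2 went from 57.2 to 24.8 CPM, that of Map2 from 390 to 174 and that of Syt1 from 304 to 85.3. Over the same groups 2 of the 8 astrocyte markers and 4 of the 10 neuronal markers had a positive log2 difference. After OGD with the miR-29 virus, 5 of 10 neuronal markers were lower and 1 higher than with the empty virus, where 19.9% of all genes were lower and 17.2% higher. With the length trend taken out and the block added, 3 were lower and 0 higher. Of the astrocyte markers, 1 of 8, the glutamate transporter gene Slc1a2, was lower, at -1.18 ± 0.23 (adjusted p = 0.000966, edgeR), and this call was lost with the trend removed and the block added. The 4 microglial markers tested summed to 22.0 to 30.0 CPM in OGD-empty and 33.8 to 45.9 in the other groups. The part of these markers in the levels of Mt1 and Mt2 was not tested.

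Mt3, the brain metallothionein, did not follow the pair under the empty virus. It had 13.9 and 14.5 CPM in sham-empty and 7.41, 6.32 and 6.97 CPM in OGD-empty. It had 10.6, 9.61 and 10.5 CPM in sham-miR-29 and 14.3, 16.9 and 13.9 CPM in OGD-miR-29. OGD-empty held the lowest libraries, and OGD-miR-29 overlapped sham-empty. It fell by 1.02 ± 0.29 on the log2 scale with OGD under the empty virus (adjusted p = 0.0475, edgeR), where 3.61% of all genes were called lower and 1.48% higher. This call was lost in 19 of 23 alternatives, among them DESeq2 (adjusted p = 0.0851) and removal of the length trend (-0.66, adjusted p = 0.231).

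Mt3 under the miR-29 virus had a log2 difference of 0.55 ± 0.22 with OGD (adjusted p = 0.504). It was higher with the miR-29 than the empty virus after OGD, at 1.10 ± 0.23 (adjusted p = 0.00178), and also with the trend removed and the block added (0.67, adjusted p = 0.0403). Its OGD response differed between the viruses by 1.57 ± 0.37 (adjusted p = 0.0163), which was 1.05 with the trend removed and the block added (adjusted p = 0.0944). Whether Mt3 and the pair differ in their response was not tested. Mtf1, the metal-responsive factor, had mean levels of 21.5 ± 2.30, 20.1 ± 1.04, 19.4 ± 2.42 and 19.5 ± 2.95 CPM in sham with empty and miR-29 virus and in OGD with empty and miR-29 virus. Its libraries overlapped, and its log2 differences of -0.17 ± 0.26 (adjusted p = 0.732) and -0.06 ± 0.21 (adjusted p = 0.951) with OGD did not pass. Its row can share reads with Maneal, on the opposite strand, whose total was close to its own. Whether rows on opposite strands share reads depends on the strand setting of the counting, which is not given.

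Slc30a1, which encodes the zinc exporter ZnT1, had one of the profiles nearest to the pair, level with Tmprss6 in the ranking given below. It had 7.96 and 10.4 CPM in sham-empty and 8.72, 11.9 and 6.69 CPM in sham-miR-29. After OGD it had 21.8, 14.5 and 14.5 CPM under the empty virus and 18.0, 24.8 and 23.1 CPM under the miR-29 virus. No OGD library overlapped a sham library. Within a virus, 22% of genes under the empty virus and 8.19% under the miR-29 virus were higher without overlap, and the share over both was not computed. Its log2 differences with OGD were 0.89 ± 0.35 (adjusted p = 0.130) under the empty virus and 1.27 ± 0.26 (adjusted p = 0.171) under the miR-29 virus, and neither passed. The second passed with the trend removed and the block added (1.29, adjusted p = 0.0394), and without OGD-empty replicate 2 (1.26, adjusted p = 0.0175). Between the viruses after OGD it differed by 0.31 ± 0.25 (adjusted p = 0.333).

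**Figure D4:**
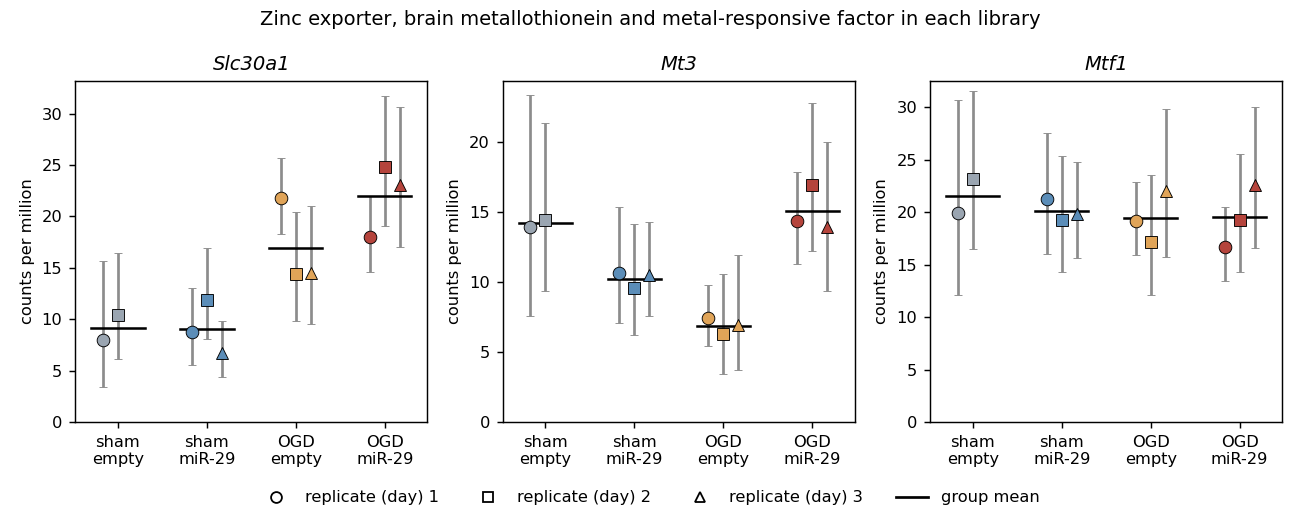
Slc30a1, Mt3 and Mtf1 in CPM (y axes, from 0) in each library by group, drawn as for the pair: points are libraries shaped by replicate number, bars 95% Poisson counting intervals, lines group means. Slc30a1 is higher in each OGD library than in each sham library, Mt3 is lowest in OGD-empty, and Mtf1 overlaps in all groups.

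Zinc transporter genes as a list did not pass the test with OGD. Of 22 listed zinc transporters 15 were tested, and 0 were called with OGD under either virus by edgeR, DESeq2 or limma-voom. There were 4 at an unadjusted p under 0.05 under the empty virus and 3 under the miR-29 virus. Over all 12119 genes there were 2876 and 1111, which is also the background for such counts in the lists below. Under the miR-29 virus edgeR called only Mt1 and Mt2. The 0 calls by edgeR there were thus fixed, here and in the lists below. The median log2 differences of the 15 transporters were -0.09 and -0.10, against 0.02 and -0.00387 over all genes. After OGD, 5 were higher and 1 lower with the miR-29 virus than with the empty virus. Higher were Slc39a13 (1.24 ± 0.26, adjusted p = 0.00178), Slc39a1 (1.19 ± 0.36, adjusted p = 0.0136) and Slc39a2 (0.98 ± 0.29, adjusted p = 0.0136), zinc importers, with Slc39a3 and Slc39a7. Lower was Slc30a7, which moves zinc into the Golgi (-0.90 ± 0.33, adjusted p = 0.0353). That is 40% of the list against 37.1% of all genes, 17.2% higher and 19.9% lower. With the length trend taken out and the block added, Slc39a13 and Slc39a2 were still called, and Slc39a1, Slc39a3, Slc39a7 and Slc30a7 were not. The rows of Slc39a13 and Slc39a2 can share reads with Psmc3 and Ndrg2, and those of Slc39a3, Slc39a7 and Slc30a7 with Gm16099, Gm20427 and Dph5. Of these neighbours only Gm20427 is on the same strand as its gene.

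Copper and iron genes gave a similar picture. Of 9 copper genes tested, 0 were called with OGD under either virus by any of the 3 tools, with 1 at an unadjusted p under 0.05 under the empty virus and 0 under the miR-29 virus. Sod1, the copper and zinc superoxide dismutase, was at -0.57 ± 0.32 (adjusted p = 0.280) and 0.23 ± 0.26 (adjusted p = 0.798). Of 8 iron genes 0 were called with OGD by any tool, with 3 and 1 at an unadjusted p under 0.05. Between the viruses after OGD, 3 of the copper genes were higher with miR-29: the chaperones Ccs and Atox1 and the cytochrome oxidase assembly factor Sco2, which can share reads with Ncaph2. That is 33.3% of the list against 37.1% of all genes, and 0 of the 9 were called with the length trend taken out and the block added. The ferritin genes Ftl1 and Fth1 were higher there too, with Hmox1, and Ireb2 was lower. These are 4 of 8 iron genes, or 50% against 37.1%; DESeq2 called 1 of them, and 0 were called with the trend removed and the block added. Ftl1 and Fth1 can share reads with Gys1 and Best1. Gys1, Best1 and Ncaph2 are each on the opposite strand.

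Among 12 tested genes of the NRF2 pathway, which answers oxidative stress, 2 were called higher with OGD under the empty virus (16.7%, against 1.48% of all genes called higher), and DESeq2 and limma-voom each called 1 of the 12. Slc7a11, the cystine transporter, rose by 1.78 ± 0.36 (adjusted p = 0.0092, edgeR), from 5.59 ± 0.536 to 19.3 ± 2.85 CPM. This call was lost without either sham-empty library (adjusted p = 0.0904 and 0.179) and with the length trend removed (1.23, adjusted p = 0.0766). Nfe2l2, NRF2 itself, had 3 counts in all of sham-empty and 85 in OGD-empty. That is a ratio of 7.34 with a 95% counting interval of 2.43 to 36.3 (exact binomial). Its row can share reads with Hnrnpa3 on the opposite strand. Under the miR-29 virus 0 of the 12 were called with OGD by any of the 3 tools, with 2 at an unadjusted p under 0.05. Hmox1, heme oxygenase, had 14.2 ± 5.29, 16.0 ± 3.54, 19.3 ± 4.63 and 31.4 ± 6.22 CPM in the same order of groups as Mtf1 above. It took the largest value in the same group as the pair. Its log2 difference was 0.48 ± 0.33 with OGD under the empty virus (adjusted p = 0.384) and 0.97 ± 0.25 under the miR-29 virus (adjusted p = 0.333), and it was 0.73 ± 0.24 higher with miR-29 after OGD (adjusted p = 0.0249). That last call was lost with the length trend removed (0.31, adjusted p = 0.364). In the same contrast Gsr and Sqstm1 were called higher too, and Nfe2l2, Slc7a11 and Gclm were called lower, 6 of the 12 in all (50% against 37.1%). With the trend removed and the block added, Sqstm1 was called higher and Nfe2l2 lower.

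Genes tied to other inducers of metallothioneins, and to hypoxia, were read as lists. These hold regulators such as Nr3c1, Hif1a, Jak2 and Stat3 as well as target genes. The part of these inducers in the levels of Mt1 and Mt2 was not tested. Of 10 glucocorticoid-responsive genes tested, 0 were called with OGD under either virus by any of the 3 tools, with 2 and 1 at an unadjusted p under 0.05. With the block, Dusp1, a phosphatase gene that can share reads with Ergic1 on the opposite strand, was called lower under the empty virus. Fkbp5, a glucocorticoid receptor co-chaperone, was at 0.20 ± 0.50 (adjusted p = 0.840) and 0.45 ± 0.40 (adjusted p = 0.721). Of 12 IL-6 and STAT3 genes 4 were among those tested, and Socs3 was not among them. Of these 4, 0 were called with OGD by any tool, and 0 had an unadjusted p under 0.05. Of 8 hypoxia genes tested, 0 were called with OGD by any tool, with 0 at an unadjusted p under 0.05 under the empty virus and 2 under the miR-29 virus. Vegfa, the vascular growth factor, was at 0.82 ± 0.41 (adjusted p = 0.230) and 0.51 ± 0.29 (adjusted p = 0.594). The 8 had median log2 differences with OGD of 0.03 and 0.37, with 4 and 7 positive. Over all genes the medians were 0.02 and -0.00387. After OGD, Ldha, P4ha1 and Bnip3 were called higher with miR-29 than with empty virus and 0 lower (37.5%). The glucocorticoid list had 1 higher and 2 lower (30%), and the STAT3 list 1 lower (25%). Of all genes 17.2% were higher and 19.9% lower. With the length trend taken out and the block added, only Ldha of the 3 was called.

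Taking the 8 lists as one, without Mt1 and Mt2, 67 genes were tested. Under the empty virus 3 of them were called with OGD, Slc7a11, Nfe2l2 and Mt3, which is 4.48% against 5.09% of all genes, and their median log2 difference was -0.13. Under the miR-29 virus 0 were called by any of the 3 tools, and the median was 0.10. Each tool called 2 genes in all there, and those of edgeR were Mt1 and Mt2, so its 0 was fixed. At an unadjusted p under 0.05 there were 9 of the 67, against 1111 of all 12119 genes. After OGD 26 of the 67 differed between the viruses (38.8% against 37.1%). By the share called, the lists thus stood near the background under the empty virus and between the viruses after OGD. The share called with OGD under the miR-29 virus could not show this.

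**Figure D5:**
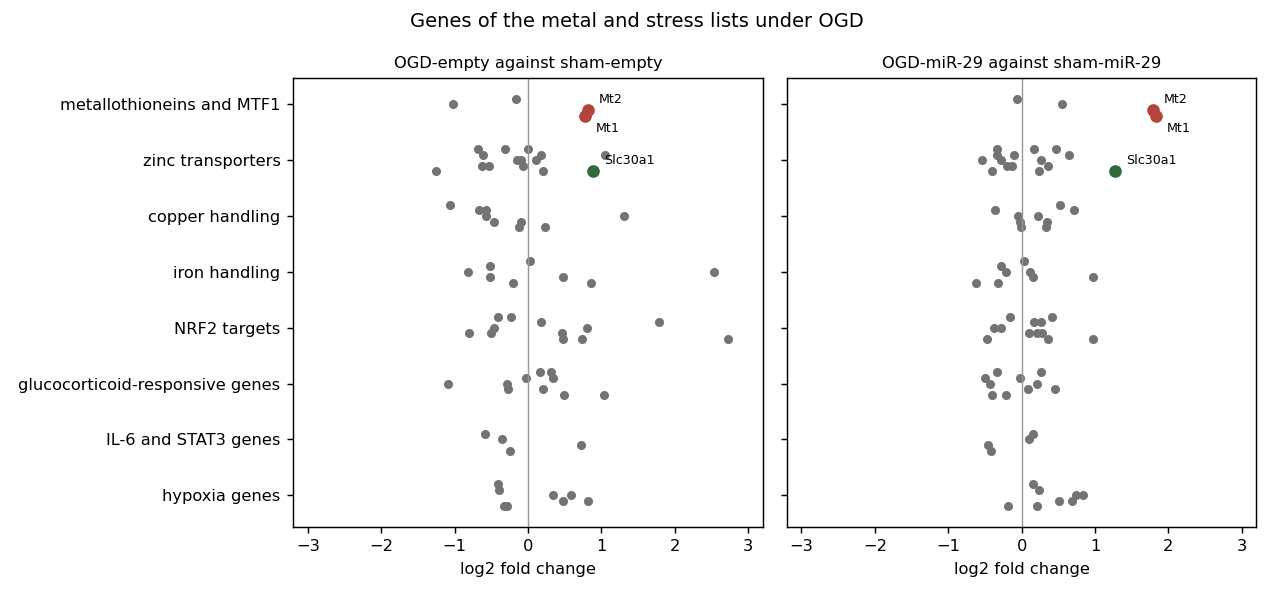
Log2 fold changes with OGD (x axis) of every tested gene of the 8 metal and stress lists (rows) under the empty virus (left) and the miR-29 virus (right); points are genes, Mt1 and Mt2 are red and Slc30a1 is green. Under the miR-29 virus Mt1 and Mt2 lie farthest right, at 1.83 and 1.79, and Slc30a1 is next at 1.27.

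Over the 11 libraries, 5 genes had the profiles most like the mean of Mt1 and Mt2, ranked by the root mean square (RMS) difference of centred log2 CPM among 12117 genes. They were Slc30a1 (RMS difference 0.428), Tmprss6 (0.428), Klf10 (0.442), Gm17055 (0.459) and Fam195a (0.465), against a median of 0.874 over all genes and an RMS of 0.749 for the pair's own profile. Mt1 and Mt2 differed from each other by 0.151, but their rows can share reads. Slc30a1 and Tmprss6 were thus level, and by Pearson correlation with the mean profile the order was another: Tmprss6 had 0.880, Klf10 0.834 and Slc30a1 0.821. Tmprss6 encodes a serine protease that acts on iron regulation, and its row can share reads with Kctd17. Klf10 encodes a zinc finger factor induced by TGF-beta. Gm17055 can share reads with Bhlhe40, and Fam195a with Gm26694 and Wdr90. Bhlhe40 and Wdr90 are on the same strand as these genes, and Kctd17 and Gm26694 are on the opposite strand. The likeness is across the same libraries that set the pair's profile and shares their depth and scaling. The smallest adjusted p among the 5 with OGD, under either virus, was 0.130 by edgeR, that of Slc30a1 under the empty virus.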

How the data were processed

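RNA was measured in mouse cortical cultures by sequencing of DNase-treated total RNA after removal of ribosomal RNA (Illumina TruSeq), per the labels' protocols. The authors deposited raw read counts per gene symbol for 12 libraries. The submitters' processing notes list STAR 2.5.0a, featureCounts 1.4.3-p1, edgeR and build mm10, with no role for each. Not given in the sources used here are the annotation, strand setting and counting region. In addition, 2 tables of comparisons from the authors list, per the file headers, fold change and mean abundance as log2 values, the score of a likelihood ratio test, and its p-value, raw and as a false discovery rate. The columns of samples that stayed unmapped numbered 0.

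Counts were tested with edgeR 4.0.16 in R 4.3.3 (quasi-likelihood F test, robust, TMM, filterByExpr), in 1 fit of 11 libraries with 4 group means, over 12119 genes. The design had assumed 12 libraries. Adjusted p is Benjamini-Hochberg over all genes tested, and a standard error is the size of the log2 fold change over the root of F. CPM is the count per 1e6 of the TMM-scaled library total. The fit was also run on simulated counts with a set spread, in which well-counted genes changed by more than Mt1 and Mt2 did. That run does not show how the fit does for smaller changes or low counts. Alternatives used DESeq2 1.42.0, limma 3.58.1, a block for the replicate number, removal of a trend on exonic length, other scalings and filters, and leaving out libraries. Replicate numbers stand for days of dissection in the design text, so they pair the groups. The deviations of same-numbered libraries from group means correlated at -0.0788 to 0.218 over 15 pairs, with 4 over 0.1, and those of other pairs at -0.23 to 0.19, with 2 of 30 over 0.1.

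Mt1, Mt2 and the gene lists were chosen with earlier results of these data known. Of the lists, Mtf1, Mt3, Slc30a1, Sod1, Hmox1, Fkbp5, Socs3 and Vegfa were named by rule, with up to 3 called genes of each list per contrast, the largest by fold, and the 5 genes of nearest profile; other names were chosen after their values were seen. Sequences are from RefSeq tables of GRCm38.p6.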

Additional observations from a re-analysis of the deposited data

Results flagged for a closer look

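Of the 67 tested genes of the metal and stress lists, Mt1 and Mt2 left out, 3 had an OGD response that differed between the viruses in the interaction test of edgeR (4.48%, against 8.38% of all genes), and these are given as values. Mt3 had a log2 difference of -1.02 with OGD under the empty virus and 0.55 under the miR-29 virus, a difference of 1.57 ± 0.37 (adjusted p = 0.0163) that was no longer called in 7 of 22 alternatives. Slc7a11, the cystine transporter gene, had 1.78 and 0.27, a difference of -1.51 ± 0.47 (adjusted p = 0.0498) that was no longer called in 17 of 22 alternatives. Nfe2l2 gave a difference of -3.19 ± 0.83 (adjusted p = 0.0241); its sham-empty level rests on 3 counts, so the fitted size depends on the prior count, and the call was lost in 6 of 21 alternatives.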

How the results depend on the processing

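Every fold change of Mt1 and Mt2 kept its sign in all alternatives run. Under the empty virus the OGD difference of Mt1 ran from 0.72 to 0.94 and that of Mt2 from 0.62 to 1.03 with libraries or days left out. With the length trend removed it was 1.13 and 1.21, and 1.19 and 1.33 with the replicate block too, and the block alone gave 0.91 for Mt2, all past the threshold. Mt1 did not pass in 20 of 23 alternatives, nor did Mt2 in 20 of 24. Under the miR-29 virus leaving out gave 1.54 to 2.06 for Mt1 and 1.62 to 2.00 for Mt2. Between the viruses in sham it gave -0.42 to -0.0841 and -0.55 to -0.14. After OGD the difference between the viruses fell to 0.34 and 0.20 with the trend removed, and to 0.33 and 0.18 with the block added. Subtraction of the Mt1 row gave 0.27 for Mt2, and leaving out gave 0.54 to 1.03 for Mt1 and 0.35 to 0.83 for Mt2. The interaction was 0.59 and 0.50 with the trend removed, 0.51 and 0.35 with the block added, and 0.71 to 1.34 for Mt1 and 0.78 to 1.19 for Mt2 with libraries or days left out. The ratio of the rows was 1.41 to 1.46 without single libraries.

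Counts of called genes moved more. Under the empty virus 617 genes became 388 with limma-voom, 1369 with the replicate block, 201 with only the groups compared, 253 with the trend removed and 0 to 984 with libraries or days left out (0 without the day of replicate 1, 12 and 76 when the sham-empty library left out was replicate 1 or 2). Under the miR-29 virus 2 became 5 with the block or with only the groups compared, 8 with the trend removed, 13 with the block as well, and 0 to 21 with leaving out (21 without OGD-empty replicate 2, 0 without the day of replicate 1). After OGD, 4501 became 2582 to 4519 with leaving out. The interaction count of 1015 became 1861 with the block, 432 with the trend removed and 0 to 1516 with leaving out. Between the viruses in sham it was 0 throughout. The cause of these changes was not tested. A lone library left in a group was assumed to vary like the others. Low depth limits all of these values, as do the 2 libraries of sham-empty.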
